A study of Saccharomyces cerevisiae with 14 samples.

Results

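The genes described here are 49 genes of budding yeast for enzymes of amino acid biosynthesis and GCN4, the gene of the transcription factor Gcn4. These 50 genes were taken by name from a table of 6598 genes, and each had a value in every condition. The enzymes belong to 9 groups: histidine (6 genes), the branched-chain amino acids leucine, isoleucine and valine (10), the common aromatic, phenylalanine and tyrosine steps (8), tryptophan (4), lysine (7), serine (4), the aspartate family of homoserine and threonine (5), asparagine (2) and proline (3). The arginine and sulfur pathways are not among them.

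RNA came from Saccharomyces cerevisiae of the W303 background, either with RPD3 deleted (called the mutant here) or wild type; RPD3 encodes a histone deacetylase. Each genotype was harvested as log cells at an OD600 of 0.4 to 0.6, as DS cells (diauxic shift) 2 hours after the glucose was exhausted, and as Q cells, which are quiescent cells taken by Percoll gradient out of 7-day cultures. Each of these 6 conditions had 2 isolates, and 14 strand-specific libraries with ERCC spike-in transcripts were made in all, since both isolates of wild-type log cells were used at 0.2 and at 1 equivalents of spike-in. The sources used here do not state the growth medium, and so the supply of amino acids to the cells, nor the auxotrophic markers of the strains. The table holds 1 value per condition, in FPKM that the authors scaled to the RNA content per cell, so no SD, interval or test stands behind any value, and the read depth is unknown. Changes below are differences of log2(FPKM + 1), and "at least 2-fold" means a change of 1 or more in size. In a bulk culture, fewer cells with a transcript and less of that transcript per cell cannot be told apart.

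RPD3 had no value in mutant log cells and was at 0.941 and 0.0279 FPKM in mutant DS and Q cells, against 70.8, 37.7 and 2.35 FPKM in wild-type log, DS and Q cells. Of the genes taken to check the harvests, PCK1 of gluconeogenesis was at 5405 FPKM in mutant DS and 4.67 in mutant log cells, and at 4142 FPKM in wild-type DS and 5.62 in wild-type log cells. SPG4, a stationary phase gene, was at 1820.3 FPKM in mutant Q and 2.83 in mutant log cells. In wild type it was at 2.59 FPKM in log, 1092 in DS and 706 in Q cells. There it did not separate Q from DS harvests. Its mutant DS level was 307 FPKM. At DS, mutant and wild type also differed in HSP26 (843 and 6649 FPKM), SPG1 (119 and 798) and HXK2 (149 and 28.1). Levels of HXT3 (95.2 and 47.4), FBP1 (3848 and 2880) and ADH2 (6030 and 5549) were closer. Whether the DS harvests of the genotypes were matched in stage was not tested. The scale itself shifted most genes: over the 6296 genes measured in all conditions, the summed FPKM of mutant log, DS and Q cells came to 105%, 55.8% and 22.4% of that in wild-type log cells, and those of wild-type DS and Q cells to 42.0% and 4.01% of it. The median change of all genes is therefore given with each comparison. Where a direction turned once each condition was centred on its median gene, the value is followed by the centred one.

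Gcn4 is the activator of general amino acid control. When uncharged tRNA accumulates, the kinase Gcn2 phosphorylates the initiation factor eIF2, and upstream reading frames in the GCN4 leader then let more ribosomes reach the GCN4 start codon, so Gcn4 protein can increase with no increase of its mRNA. The protein binds TGACTC-type elements in front of genes of many amino acid pathways and is itself rapidly degraded. An RNA measurement sees the GCN4 transcript and the transcripts of the targets, not the protein.

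The TGACTC core, on either strand, was searched in the 300 bases before each coding start of the S288C reference (RefSeq, build R64). The sources used here do not name the authors' build, and the strain studied was W303. The core stood before 31 of the 50 genes (62%), against 466 of 6001 promoters of the same length (7.77%), and the longer TGACTCA stood before 21 of the 50 (42%), against 157 promoters (2.62%). The 50 genes were listed as amino acid biosynthesis under Gcn4, so a high share was likely in advance. The 6001 promoters include those of the 50 genes. HIS1, HIS4, HIS7 and LYS1 held more than 1 core. The 19 genes without one in this window were GCN4 itself, HIS2, LEU1, ILV2, BAT2, ARO2, ARO3, ARO4, ARO7, ARO8, TYR1, TRP5, LYS4, LYS9, LYS20, LYS21, SER3, HOM6 and PRO1. A match is a description of the letters and not a measured binding site, and a window without one shows nothing about the factor.

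HIS4, a classic model gene of Gcn4 action, is shown with 200 bases from 300 to 101 bases before its coding start, the cores in capitals, because all 3 of its cores lie there.
HIS4 (chrIII:68434-68633, minus strand): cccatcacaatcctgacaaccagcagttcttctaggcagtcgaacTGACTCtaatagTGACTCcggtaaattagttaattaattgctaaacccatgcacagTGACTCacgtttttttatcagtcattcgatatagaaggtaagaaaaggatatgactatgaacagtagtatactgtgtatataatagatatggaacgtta

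The next windows of 30 bases, written in the direction of the gene with the core (or its reverse complement) in capitals, belong to genes that hold a core and whose values stand out below. Genes without a core could not be shown in this way. Among those, ARO7, BAT2, LEU1 and LYS20 also stand out below, so standing out was not limited to genes with a core. LEU4 and LEU9, and ASN1 and ASN2, are isozyme pairs. ARO1 and LYS1 were among the few genes not lower in DS cells, and HIS1 and SER2 were among the lowest there. HOM3, THR1, ASN1 and PRO3 had the highest changes of log2(FPKM + 1) of all 50 genes between mutant and wild-type Q cells.
LEU4 (chrXIV:426838-426867, minus strand): cttacgtgtaagTGACTCagttctttcaaa
LEU9 (chrXV:522758-522787, plus strand): ggtcgtagtgaaTGACTCatatttttccat
ASN1 (chrXVI:822381-822410, plus strand): tcatgtaacattTGACTCattctgtaaact
ASN2 (chrVII:739735-739764, plus strand): ttttcttagcatTGACTCatggcaagattt
ARO1 (chrIV:704249-704278, plus strand): ttgtcatgcataTGACTCatcccgaacatg
LYS1 (chrIX:420853-420882, minus strand): ttcagcgacaaaGAGTCAtaaagtcatcct
HIS1 (chrV:266050-266079, minus strand): ttgataacagcgTGACTCttcccggaaatt
SER2 (chrVII:911716-911745, plus strand): ccgagaaagaaaGAGTCAatactaataatc
HOM3 (chrV:258224-258253, minus strand): ttttcaggcccaTGACTCaccttttctttc
THR1 (chrVIII:159325-159354, plus strand): aaatttgtgcaaGAGTCAtcatctcgaaaa
PRO3 (chrV:200870-200899, plus strand): gtgtaatatcctGAGTCActccttaaacct
Counted from its upstream end in the direction of the gene, the core began 101 bases before the coding start in LEU4, 257 in LEU9, 227 in ASN1 and 197 in ASN2.

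The 31 genes with a core and the 19 without one had close median changes in DS cells: in wild-type DS against log cells the medians were -1.34 with and -1.36 without a core, and in the mutant -0.70 and -0.61. In Q against log cells they were further apart, -3.23 with and -2.58 without a core in the mutant, and -6.47 and -5.99 in wild type. Between mutant and wild-type Q cells they were 3.61 with and 3.51 without a core.

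The levels of all 50 genes in each condition are drawn below by pathway. In log cells the enzymes were abundant transcripts, with a median of 260.1 FPKM in the mutant and 215 FPKM in wild type. ILV5, the acetohydroxyacid reductoisomerase of isoleucine and valine synthesis, was the highest enzyme in log cells, with 1779 FPKM in the mutant and 1511 in wild type. PHA2, prephenate dehydratase of the phenylalanine branch, was the lowest, with 19.0 FPKM in the mutant and 20.3 in wild type. FPKM are per length of transcript, so these levels can be set side by side between genes. The enzyme median in the mutant was 163 FPKM in DS and 37.1 FPKM in Q cells, and in wild type it was 85.9 FPKM in DS and 1.23 FPKM in Q cells. No member was below 1 FPKM in mutant Q cells, against 21 of 50 (42%) in wild-type Q cells, and of all genes 2.10% and 41.7% were. Values below 1 FPKM in wild-type Q cells are imprecise to an unknown degree, and the pseudocount of 1 compresses changes that involve them.

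**Figure D1:**
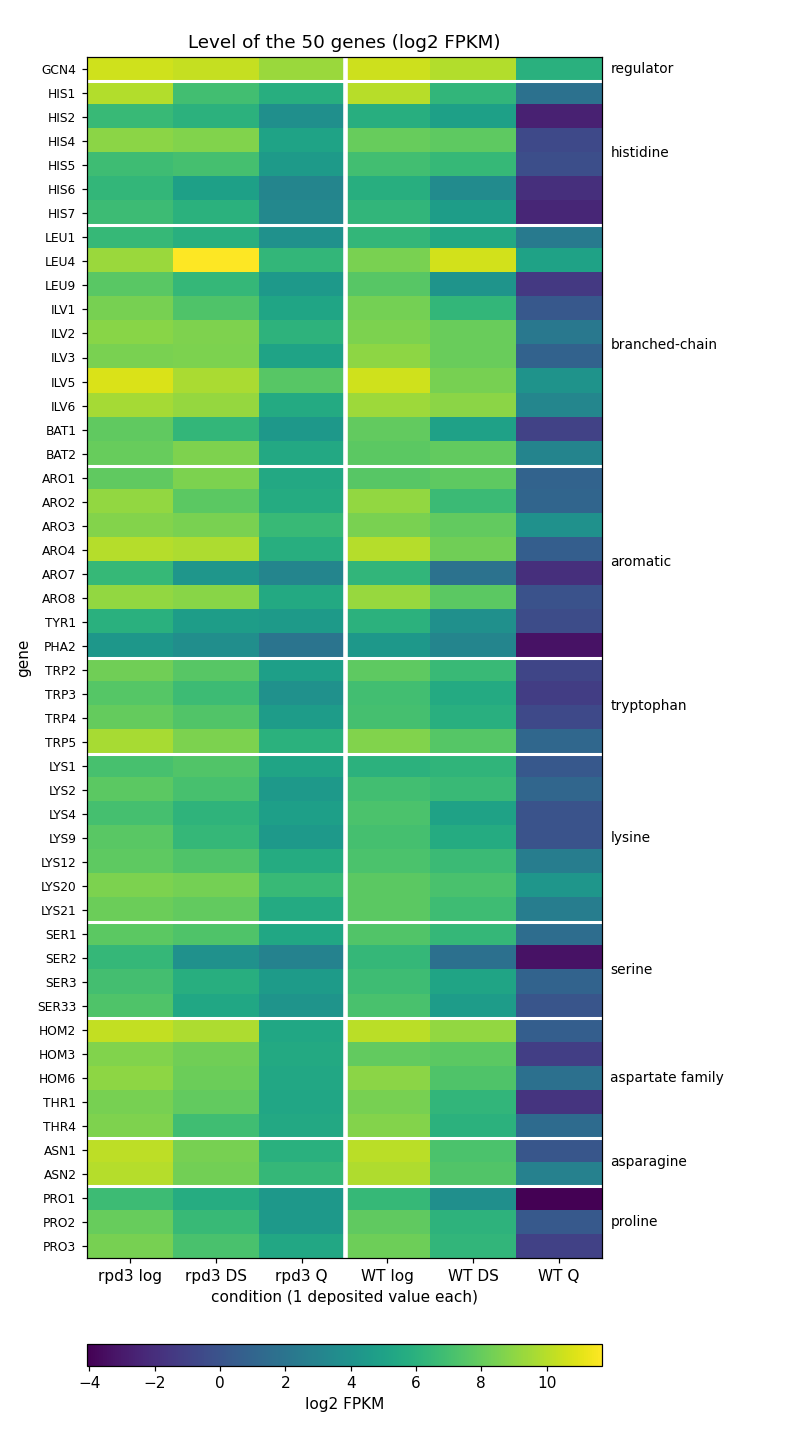
Level of each of the 50 genes (rows, grouped by pathway) in the 6 conditions (columns, mutant on the left and wild type on the right) as log2 FPKM, 1 deposited value per cell of the map. LEU4 is brightest in DS cells of both genotypes, with 3306 FPKM in the mutant and 1583 in wild type, and the wild-type Q column is the darkest, down to 0.0596 FPKM for PRO1.

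The GCN4 transcript was lowered less than the median enzyme in DS and Q cells of both genotypes. GCN4 was at 1494, 1259 and 627 FPKM in mutant log, DS and Q cells, and 1445, 925 and 61.2 FPKM in wild-type log, DS and Q cells. It lay above the median enzyme in each condition, by a factor of 5.74, 7.71 and 16.9 in mutant log, DS and Q cells and of 6.72, 10.8 and 49.7 in log, DS and Q cells of the wild type. By level GCN4 was number 188, 84 and 35 among the genes with a value in mutant log, DS and Q cells, and number 187, 100 and 94 in log, DS and Q cells of the wild type. 1 of the 49 enzymes was above it in log cells (ILV5) and 1 in DS cells (LEU4) of each genotype, and none was in Q cells of either. In DS against log cells its change was -0.25 (0.31 centred) in the mutant and -0.64 (0.27 centred) in wild type, and in Q against log cells it was -1.25 (0.17 centred) and -4.54 (0.27 centred). Ordered from the highest change, GCN4 was number 12 and 1 of the 50 genes in the mutant and number 13 and 7 in wild type (DS and Q against log in each). Relative to the median gene, it was slightly above its log level in DS and Q cells of both genotypes, by less than 2-fold. In the mutant against wild type it was 0.05 (-0.33 centred) in log, 0.44 (-0.29 centred) in DS and 3.33 (-0.43 centred) in Q cells.

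Genes that act on GCN4 translation were lower in DS cells than most. Of 13 such genes, 11 were at least 2-fold lower in mutant DS against log cells (28.6% of all genes), with a median of -1.44, and 12 were in wild-type DS against log cells (44.2% of all genes), with a median of -2.78. GCN2, the eIF2 kinase, was the exception in wild type: it was at 31.0, 23.2 and 18.7 FPKM in the mutant and 28.7, 18.9 and 1.52 FPKM in wild type (log, DS and Q in each). TIF5, the gene of initiation factor eIF5, had the lowest change of the list in wild-type DS against log cells, at 35.4 FPKM in DS and 401 FPKM in log cells (-3.46). Most of this list encodes general initiation factors, among them the subunits of eIF2 and eIF2B, which serve all translation.

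Genes for control of the Gcn4 protein and its coactivators moved less. 4 of 11 were at least 2-fold lower in mutant DS against log cells (28.6% of all genes) and 5 of 11 in wild-type DS against log cells (44.2%), with medians of -0.74 and -0.82 (0.06 centred), so counts and medians both lay near those of all genes. MBF1, a bridge between Gcn4 and the TATA-binding protein, was at 975, 365 and 326 FPKM in mutant log, DS and Q cells, and 712, 714 and 102 FPKM in wild-type log, DS and Q cells. In DS cells MBF1 was lower in the mutant than in wild type, by a change of -0.97, while the median of all genes was higher. PCL5, the cyclin for the kinase that marks Gcn4 for degradation and itself known as a Gcn4 target, was at 361, 151 and 83.0 FPKM in mutant log, DS and Q cells, and 196, 133 and 18.9 FPKM in wild-type log, DS and Q cells.

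After glucose exhaustion most of the enzymes were lower, and a few were not. In mutant DS against log cells 1 of the 50 genes was at least 2-fold higher (7.55% of all genes) and 20 were at least 2-fold lower (28.6%). Their median was -0.65, against -0.52 for all genes. In wild-type DS against log cells 1 was at least 2-fold higher (9.91% of all genes) and 31 were lower by as much (44.2%). Here their median was -1.35, against -0.85 for all genes. The gene that was higher was LEU4 in both genotypes. With centred conditions 3 were higher and 7 lower in the mutant (14% and 13.2% of all genes), and 4 higher and 17 lower in wild type (20.2% and 22.1%). The 50 genes as a list therefore lay somewhat below the median gene in wild-type DS cells and near it in mutant DS cells, and the spread within the list was wider than that distance.

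**Figure D2:**
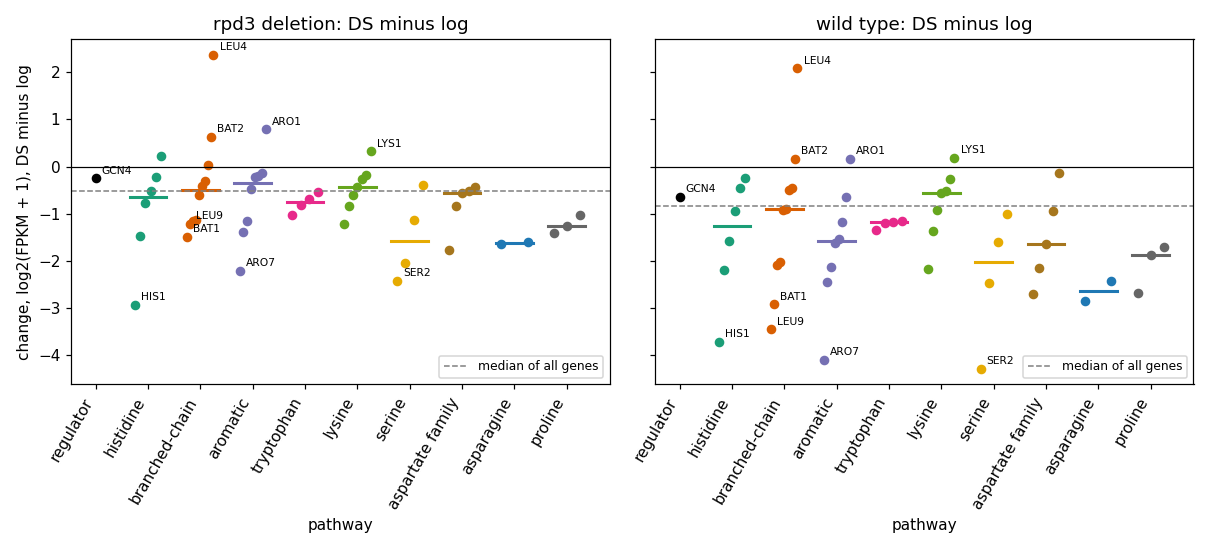
Change between DS and log cells of each gene, as the difference of log2(FPKM + 1), in the mutant (left) and in wild type (right), by pathway. Short bars are pathway medians and the dashed line is the median of all genes, -0.52 in the mutant and -0.85 in wild type. LEU4 stands alone at the top of both panels, and HIS1, ARO7 and SER2 are at the bottom of both.

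Leucine, isoleucine and valine share mitochondrial steps, and leucine synthesis leaves the valine route at isopropylmalate synthase. LEU4, the main isopropylmalate synthase gene, was at 639, 3306 and 81.3 FPKM in mutant log, DS and Q cells, and 374, 1583 and 32.0 FPKM in wild-type log, DS and Q cells. Its DS level was the highest of any member in either genotype, with a change of 2.37 in mutant and 2.08 in wild-type DS against log cells. LEU9, the gene of the second isopropylmalate synthase, was at 203, 86.9 and 22.1 FPKM in mutant log, DS and Q cells, and 194, 16.9 and 0.359 FPKM in wild-type log, DS and Q cells. It went the other way, with -1.21 in mutant and -3.44 in wild-type DS against log cells. LEU4 alone made up 52.8% of the FPKM of the 10 branched-chain genes in mutant DS and 12.3% in mutant log cells, and 46.8% in wild-type DS and 8.29% in wild-type log cells. The 10 genes together were 0.836% of the summed FPKM in mutant DS and 0.366% in mutant log cells, and 0.600% in wild-type DS and 0.336% in wild-type log cells.

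The other branched-chain genes did not follow LEU4. BAT2, the cytosolic branched-chain aminotransferase, was at 260.1, 403 and 43.3 FPKM in mutant log, DS and Q cells, and 211, 237 and 8.26 FPKM in wild-type log, DS and Q cells. Its mitochondrial partner BAT1 was at 231, 81.5 and 20.3 FPKM in mutant log, DS and Q cells, and 237, 30.5 and 0.523 FPKM in wild-type log, DS and Q cells. BAT2 thus changed by 0.63 in mutant and 0.16 in wild-type DS against log cells, and BAT1 by -1.49 and -2.92. ILV1, threonine deaminase at the entry to isoleucine, and ILV5 were lower in wild-type DS cells, by -2.02 and -2.07. The acetolactate synthase genes ILV2 (catalytic) and ILV6 (regulatory), the dihydroxyacid dehydratase gene ILV3 and the isopropylmalate isomerase gene LEU1 lay between -0.91 and -0.45 (0.46 centred) in wild-type DS against log cells, none of them past 2-fold.

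Histidine genes separated in DS cells. HIS1, ATP phosphoribosyltransferase of the first step, was at 931, 122 and 56.1 FPKM in mutant log, DS and Q cells, and 1028, 77.7 and 3.51 FPKM in wild-type log, DS and Q cells. HIS4, whose product carries out several later steps, was at 493, 419.6 and 33.2 FPKM in mutant log, DS and Q cells, and 263, 223 and 0.675 FPKM in wild-type log, DS and Q cells. In DS against log cells HIS1 changed by -2.93 in the mutant and -3.71 in wild type, and HIS4 by -0.23 (0.33 centred) and -0.24 (0.67 centred). Both hold more than 1 TGACTC core. HIS5, the histidinol-phosphate aminotransferase gene, was at 129 FPKM in mutant DS and 110.4 in mutant log cells, and at 88.7 FPKM in wild-type DS and 122 in wild-type log cells. HIS2, HIS6 and HIS7, which encode the histidinol-phosphatase, an isomerase and the imidazole glycerol phosphate synthase, changed by -0.95, -2.19 and -1.57 in wild type.

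The aromatic pathway opens with the DAHP synthases Aro3 and Aro4, passes through the multifunctional Aro1 and the chorismate synthase Aro2, and divides at chorismate. ARO1 was at 226, 391 and 43.9 FPKM in mutant log, DS and Q cells, and 196, 219 and 1.95 FPKM in wild-type log, DS and Q cells. It was the aromatic gene with the highest change in DS against log cells, 0.79 in the mutant and 0.16 in wild type. ARO7, the chorismate mutase that leads to phenylalanine and tyrosine, was at 88.2, 18.2 and 8.53 FPKM in mutant log, DS and Q cells, and 79.2, 3.70 and 0.263 FPKM in wild-type log, DS and Q cells. Its change was -2.21 in the mutant and -4.09 in wild type, the lowest of the group in both. ARO2 (-2.45), the tyrosine branch gene TYR1 (-2.13), ARO4 (-1.62), PHA2 (-1.17) and the aromatic aminotransferase gene ARO8 (-1.54) were also at least 2-fold lower in wild-type DS against log cells. In the mutant ARO2 (-1.39) and TYR1 (-1.15) were past 2-fold too. There ARO4 (-0.14, 0.42 centred), ARO8 (-0.23, 0.33 centred) and PHA2 (-0.49, 0.04 centred) were not.

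The 4 tryptophan genes of the list moved as a block, but TRP1 of the same pathway did not move with them. TRP2, TRP3, TRP4 and TRP5 encode enzymes of the branch from anthranilate synthase to tryptophan synthase. They changed between -1.34 and -1.15 in wild-type DS against log cells, the narrowest range of any group of 3 or more genes. In the mutant they changed between -1.03 and -0.53 (0.02 centred). TRP1, which is in a further list below, changed by -0.22 (0.68 centred) in wild type and by 0.00 in the mutant. TRP3, a bifunctional subunit of the pathway, was at 186, 105 and 15 FPKM in mutant log, DS and Q cells, and 121, 47.3 and 0.428 FPKM in wild-type log, DS and Q cells. TRP4, the anthranilate phosphoribosyltransferase gene, was at 246, 169.7 and 24.5 FPKM in mutant log, DS and Q cells, and 134, 59.8 and 0.651 FPKM in wild-type log, DS and Q cells. With centred conditions none of the 4 was past 2-fold in DS against log cells of either genotype.

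Lysine genes had the highest median of the pathways in wild-type DS cells and the next to highest in the mutant, after the aromatic genes, with -0.43 (0.12 centred) in mutant and -0.57 (0.34 centred) in wild-type DS against log cells. LYS1, saccharopine dehydrogenase of the last step, was at 139, 174 and 35.3 FPKM in mutant log, DS and Q cells, and 67.2, 76.8 and 1.23 FPKM in wild-type log, DS and Q cells. LYS4, the mitochondrial homoaconitase gene, was at 133, 73.7 and 28.3 FPKM in mutant log, DS and Q cells, and 150.0, 32.6 and 0.987 FPKM in wild-type log, DS and Q cells. LYS1 changed by 0.32 in the mutant and 0.19 in wild type, and LYS4 by -0.84 and -2.17, the lowest of the lysine genes in wild type. LYS2, of the aminoadipate reductase, LYS9, of the other saccharopine dehydrogenase, and LYS12, of homoisocitrate dehydrogenase, lay at -0.27 (0.64 centred), -1.36 and -0.57 (0.34 centred) in wild type.

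By median change in DS against log cells, asparagine and serine genes were the most lowered groups in both genotypes, followed by the proline genes. SER2, phosphoserine phosphatase of the last step from 3-phosphoglycerate, was at 86.1, 15.3 and 7.41 FPKM in mutant log, DS and Q cells, and 84.4, 3.40 and 0.102 FPKM in wild-type log, DS and Q cells. SER1, the aminotransferase of the step before, was at 209.8, 161 and 39.4 FPKM in mutant log, DS and Q cells, and 174, 85.9 and 3.01 FPKM in wild-type log, DS and Q cells. SER2 had the lowest change of all 50 genes in wild-type DS against log cells, -4.28, and -2.42 in the mutant, while SER1 was at -1.01 and -0.38 (0.17 centred). The asparagine synthetase genes were lower together: ASN1 changed by -1.65 in the mutant and -2.84 in wild type, and ASN2 by -1.59 and -2.43.

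In the aspartate family the entry enzyme and the end of the route differed. HOM3, aspartate kinase of the first step, was at 423, 315 and 46.0 FPKM in mutant log, DS and Q cells, and 235, 215 and 0.458 FPKM in wild-type log, DS and Q cells. THR4, threonine synthase of the last step, was at 398, 116 and 43.6 FPKM in mutant log, DS and Q cells, and 428, 65.3 and 2.77 FPKM in wild-type log, DS and Q cells. HOM3 changed by -0.42 (0.13 centred) in mutant and -0.13 (0.78 centred) in wild-type DS against log cells, and THR4 by -1.77 and -2.69. HOM2, HOM6 and THR1, for the semialdehyde dehydrogenase, homoserine dehydrogenase and homoserine kinase between them, lay at -0.94, -1.64 and -2.16 in wild type.

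The 3 proline genes were at least 2-fold lower in DS cells of both genotypes. PRO1, glutamyl kinase of the first step, was at 107, 52.3 and 20.4 FPKM in mutant log, DS and Q cells, and 91.7, 13.5 and 0.0596 FPKM in wild-type log, DS and Q cells. PRO2, of the next step, was at 256, 95.5 and 21.6 FPKM in mutant log, DS and Q cells, and 226, 68.3 and 1.25 FPKM in wild-type log, DS and Q cells. PRO1 changed by -1.02 in the mutant and -2.67 in wild type, PRO2 by -1.41 and -1.71, and PRO3, of the last step, by -1.26 and -1.86.

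Quiescent cells held less of every one of the 50 transcripts than log cells. In mutant Q against log cells 50 of 50 were at least 2-fold lower (64.9% of all genes) and 0 higher (4.36%), with a median of -3.18 against -1.39 for all genes. In wild-type Q against log cells 50 of 50 were lower (93.2% of all genes) and 0 higher (1.84%), with a median of -6.26 against -3.87 for all genes. With centred conditions 37 of 50 were at least 2-fold lower in the mutant (18.9% of all genes) and 0 higher (16.8%). In wild type 39 were then lower (32.7%) and 2 higher (29.3%), and the medians were -1.79 in the mutant and -2.54 in wild type. As a list the genes were thus lower in Q cells than the common shift of the table in both genotypes.

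Against DS cells the enzymes were lower again. In mutant Q against DS cells 48 of 50 were at least 2-fold lower (40.5% of all genes) and 0 higher (2.68%), the median being -2.09 against -0.81 for all genes. The other 2 were TYR1, prephenate dehydrogenase of tyrosine synthesis, at -0.17 (0.67 centred), and SER2 at -0.95. In wild-type Q against DS cells 50 of 50 were lower (94.6% of all genes) and 0 higher (0.171%), with a median of -4.69 against -2.90 for all genes. LEU4 had the largest decrease in the mutant, -5.33, and HOM2 in wild type, -7.75; with no pseudocount HOM3 stood lower than HOM2 in wild type, at 0.214% of its DS level against 0.284%. With centred conditions 36 of 50 were lower (15.6% of all genes) and 0 higher (9.6%) in the mutant, and 33 lower (25.4%) and 0 higher (24.3%) in wild type. These comparisons share the DS column with those of DS against log cells, so a gene high in DS cells enters them with opposite signs.

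The pathways differed in their change between Q and log cells, and part of their order depended on the pseudocount of 1. On the log2(FPKM + 1) scale asparagine and aspartate family genes were lowest in wild type, with medians of -3.83 and -3.18 in mutant and -7.87 and -7.34 in wild-type Q against log cells. Lysine genes were highest among the enzymes, at -2.19 in the mutant and -4.95 in wild type. ASN1 had the lowest change of all 50 genes in wild-type Q against log cells, -8.97, followed by HOM2 at -8.70 and ARO4 at -8.54. As a plain share of the log level, with no pseudocount, wild-type Q cells held a median of 0.169% for proline genes, 0.195% for the aspartate family, 0.457% for asparagine and 1.86% for lysine genes. Proline genes were then the lowest pathway and lysine genes still the highest, and PRO1 (0.0650%) and THR1 (0.0876%) were below ASN1 (0.105%). LYS20, one of the homocitrate synthase genes of the first lysine step, had the highest change, -3.44 (1.32 centred), with LEU4 at -3.50 (1.29 centred) next to it. With centred conditions LYS20 and LEU4 were the 2 of 50 genes that were at least 2-fold above their log level in wild-type Q cells (29.3% of all genes were).

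The share of the summed FPKM does not depend on the scale per cell. The 50 genes together made up 1.47%, 2.12% and 0.871% of it in mutant log, DS and Q cells, and 1.34%, 1.52% and 0.434% in log, DS and Q cells of the wild type. The share was higher in DS than in log cells of both genotypes, although the median enzyme was lower there. Without LEU4 the share was 1.43%, 1.68% and 0.844% in mutant log, DS and Q cells and 1.31%, 1.24% and 0.374% in log, DS and Q cells of the wild type, so that in wild type the DS share without this gene was below the log share. GCN4 alone was 0.209% of the sum in mutant and 0.114% in wild-type Q cells, against 0.106% in mutant and 0.108% in wild-type log cells.

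**Figure D3:**
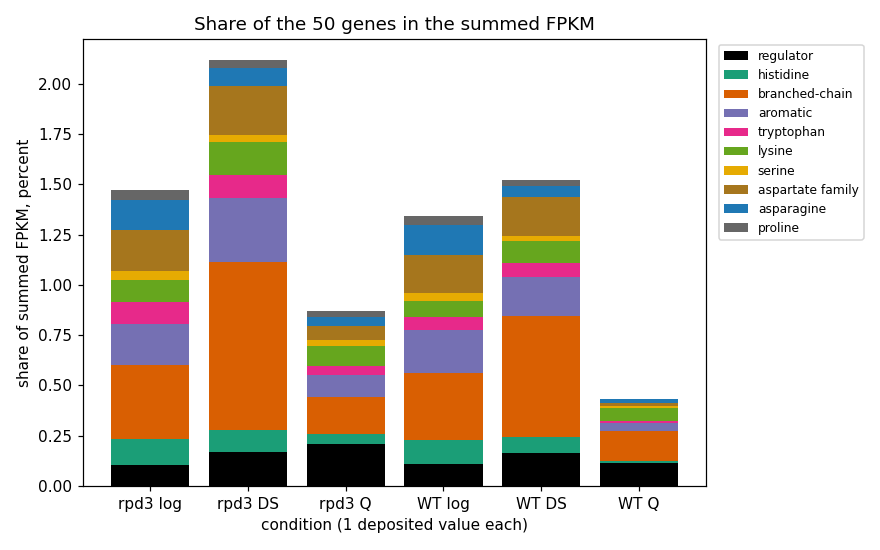
Share of the 50 genes in the summed FPKM over 6296 genes with a value in all conditions, in percent, stacked by pathway, with the mutant on the left and wild type on the right. The total is highest in mutant DS cells (2.12%) and lowest in wild-type Q cells (0.434%), and the branched-chain part is widest in DS cells of both genotypes.

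The next comparisons set the mutant against wild type at the same harvest. In log cells the genotypes were close: 1 of 50 genes was at least 2-fold higher in the mutant (10.2% of all genes) and 0 lower (3.38%). The median was 0.20 (-0.18 centred), against 0.25 for all genes. The gene past 2-fold was LYS1, with 139 FPKM in mutant and 67.2 FPKM in wild-type log cells, a change of 1.04. With centred conditions 0 genes were at least 2-fold higher (4.11% of all genes) and 0 lower (5.85%). Tryptophan and lysine genes had the highest medians, 0.74 and 0.66, and TRP5 (0.92), HIS4 (0.90), LYS20 (0.90), TRP4 (0.87) and HOM3 (0.84) followed LYS1. The aromatic and aspartate family medians were 0.01 (-0.37 centred) and 0.01 (-0.37 centred), and ILV3 was the lowest gene, at -0.45.

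In DS cells 22 of 50 genes were at least 2-fold higher in the mutant (31.3% of all genes) and 0 lower (3.62%), with a median of 0.92 against 0.64 for all genes. LEU9 had the highest change, with 86.9 FPKM in mutant and 16.9 FPKM in wild-type DS cells (2.29). ARO7 (2.03), SER2 (1.89), PRO1 (1.87) and THR1 (1.57) came next. These genes were all at least 2-fold lower in wild-type DS than in wild-type log cells, and the 2 comparisons share the wild-type DS column. With centred conditions 4 of 50 genes, LEU9, ARO7, SER2 and PRO1, were at least 2-fold higher (11.1% of all genes) and 0 lower (9.36%), and the median was 0.19.

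The difference between the genotypes in the change from log to DS cells had a median of 0.63 over the 50 genes, against 0.40 over all genes. For 11 of 50 genes it was at least 2-fold in favour of the mutant (22.5% of all genes) and for 0 at least 2-fold the other way (6.02%). The 11 were LEU9, ARO7, SER2, PRO1, THR1, ARO4, BAT1, LYS4, ARO8, ASN1 and ARO2, with differences between 1.06 and 2.23. With centred conditions 7 of 50 were past 2-fold in favour of the mutant (14.2% of all genes) and 0 the other way (10.1%). At LEU4 the difference was 0.29 (-0.06 centred), so its DS level was raised over log by a like factor in both genotypes. HIS4 had 0.00 (-0.35 centred) and HOM3 -0.29.

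In Q cells the 50 genes were at least 2-fold higher in the mutant without exception, as were 94.5% of all genes (0.343% were lower), and their median was 3.58 against 2.81 for all genes. HOM3 of aspartate kinase was at 46.0 FPKM in mutant and 0.458 FPKM in wild-type Q cells, the highest change of log2(FPKM + 1), 5.01. THR1, homoserine kinase, was at 37.9 FPKM in mutant and 0.312 FPKM in wild-type Q cells (4.89). Both belong to the aspartate family, in which HOM6, homoserine dehydrogenase, had the lowest change (3.33, -0.11 centred), with 507, 284 and 42.3 FPKM in mutant log, DS and Q cells, and 505, 161 and 3.31 FPKM in wild-type log, DS and Q cells. LEU4 had the lowest change of all 50 genes, 1.32 (-2.44 centred), with 81.3 FPKM in mutant and 32.0 FPKM in wild-type Q cells. LEU1, the next enzyme of leucine synthesis, followed with 15.1 FPKM in mutant and 5.16 FPKM in wild-type Q cells (1.38, -2.20 centred).

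Within each pathway the spread between members was wide in this comparison, and which gene was highest or lowest often depended on the pseudocount. On the log2(FPKM + 1) scale, of the histidine genes HIS4 was highest (4.35) and HIS6 lowest (2.91). HIS6 was at 82.7, 29.1 and 8.44 FPKM in mutant log, DS and Q cells, and 55.6, 11.4 and 0.257 FPKM in wild-type log, DS and Q cells. ILV1 was the highest branched-chain gene (4.11), with 359, 160.1 and 37.1 FPKM in mutant log, DS and Q cells, and 341, 83.5 and 1.20 FPKM in wild-type log, DS and Q cells. The isoleucine entry gene was thus far nearer to its log level in mutant than in wild-type Q cells, as most genes were. For 91.6% of all genes the change from log to Q cells differed at least 2-fold in favour of the mutant. Among aromatic genes ARO8 was highest (4.58), at 563, 480.4 and 45.2 FPKM in mutant log, DS and Q cells, and 614, 209.8 and 0.934 FPKM in wild-type log, DS and Q cells. PHA2 was lowest (2.19), at 19.0, 13.3 and 4.01 FPKM in mutant log, DS and Q cells, and 20.3, 8.49 and 0.101 FPKM in wild-type log, DS and Q cells. A gene near 0 in wild-type Q cells cannot reach a change above the log2 of its mutant level plus 1, and PHA2 had the lowest mutant level of the 50 genes. As plain ratios of mutant to wild-type FPKM in Q cells, HIS2 (85.3) was the highest and HIS1 (16.0) the lowest histidine gene, LEU9 (61.6) was above ILV1 (30.9), and ARO3 (6.22) was the lowest aromatic gene, with PHA2 (39.5) next below ARO8 (48.4).

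TRP5, tryptophan synthase, was the highest tryptophan gene in mutant against wild-type Q cells, with a change of 4.32, and TRP3 the lowest (3.49). TRP5 was at 780.4, 382 and 64.9 FPKM in mutant log, DS and Q cells, and 413, 183 and 2.31 FPKM in wild-type log, DS and Q cells. LYS1 (4.02) and LYS20 (2.29, -1.43 centred) were the ends of the lysine group. SER1 (3.33, -0.08 centred) and SER2 (2.93) were those of the serine group, and PRO3 (4.85) and PRO2 (3.33) those of the proline group. As plain ratios the order turned for TRP5 (28.1), then the lowest tryptophan gene with TRP2 (47.9) the highest, for SER2 (72.6), then the highest serine gene with SER3 (12.4) the lowest, and for PRO1 (343), then above PRO3 (85.5) and the highest of all 50 genes. The ratio of PRO1 rests on its lowest value, in wild-type Q cells. LYS1 and LYS4 had near equal ratios (28.7 and 28.7). PRO3 stood at 346, 144 and 42.0 FPKM in mutant log, DS and Q cells, and 291, 79.3 and 0.491 FPKM in wild-type log, DS and Q cells.

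Centring on the median gene divided the list in Q cells. 24 of 50 genes were then at least 2-fold higher in the mutant (22.4% of all genes) and 6 at least 2-fold lower (26.8%). Their median was then 0.93. The 6 that were lower were LEU4, LEU1, LYS20, ILV6, BAT2 and ARO3, and the highest were PRO1, THR1, HOM3 and PRO3. By pathway the centred medians were 1.42 for histidine, 1.34 for tryptophan and 2.55 for proline genes. For branched-chain and lysine genes the direction turned, with medians of 3.56 (-0.06 centred) and 2.83 (-0.50 centred).

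**Figure D4:**
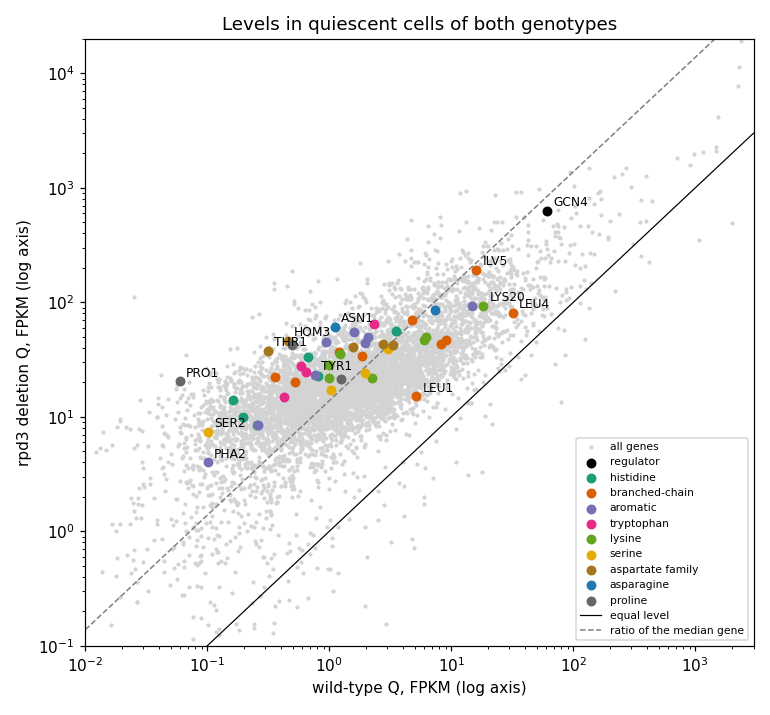
Level in mutant Q cells (vertical) against wild-type Q cells (horizontal) in FPKM on log axes, for the 50 genes coloured by pathway and for all genes in grey. The solid line marks equal levels and the dashed line the ratio of the median gene. All 50 genes lie above the solid line, and LEU4 and LEU1 lie furthest below the dashed line while PRO1, THR1 and HOM3 lie furthest above it.

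The genotype difference in the change from log to Q cells was at least 2-fold in favour of the mutant for 49 of 50 genes (91.6% of all genes) and the other way for 0 (0.688%), with a median of 3.28 against 2.52 for all genes. With centred conditions the counts were 24 (26.6% of all genes) and 5 (24.5%). The gene short of 2-fold was LEU4, at 0.54 (-2.83 centred). From DS to Q cells the count was 47 of 50 (90.0% of all genes) and 0 the other way (0.349%), with a median of 2.52 against 2.09. With centred conditions they were 12 (19.6%) and 6 (21.1%). The 3 short of 2-fold were LEU4 (0.25, -2.77 centred), ARO7 (0.88, -0.31 centred) and LEU1 (0.99, -1.87 centred).

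Isozyme pairs allow a comparison that does not depend on the scale, since the ratio of 2 genes in the same condition is free of it. LEU4 over LEU9 had a ratio of 3.15, 38.0 and 3.67 in mutant log, DS and Q cells and 1.92, 93.4 and 89.1 in log, DS and Q cells of the wild type. LEU4 was the larger member throughout, and by far the larger in DS cells of both genotypes and in wild-type Q cells. In mutant Q cells the ratio was back near that of mutant log cells.

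BAT2 over BAT1 gave 1.12, 4.95 and 2.13 in mutant log, DS and Q cells and 0.892, 7.78 and 15.8 in log, DS and Q cells of the wild type. The cytosolic enzyme gene was near its mitochondrial partner in log cells and above it in DS and Q cells of both genotypes. ARO3, the DAHP synthase inhibited by phenylalanine, was at 428, 370.4 and 92.0 FPKM in mutant log, DS and Q cells, and 373, 238 and 14.8 FPKM in wild-type log, DS and Q cells. ARO4, the one inhibited by tyrosine, was at 970.1, 880.4 and 55.4 FPKM in mutant log, DS and Q cells, and 960.1, 312 and 1.58 FPKM in wild-type log, DS and Q cells. Their ratio, ARO3 over ARO4, was 0.442, 0.421 and 1.66 in mutant log, DS and Q cells and 0.389, 0.764 and 9.33 in log, DS and Q cells of the wild type. The order of the pair was thus the opposite in Q cells from that in log and DS cells in both genotypes.

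ASN1 was at 1111, 354 and 60.8 FPKM in mutant log, DS and Q cells, and 1059, 147 and 1.12 FPKM in wild-type log, DS and Q cells. ASN2 was at 979, 324 and 86.0 FPKM in mutant log, DS and Q cells, and 906, 168 and 7.33 FPKM in wild-type log, DS and Q cells. The ratio ASN1 over ASN2 was 1.14, 1.09 and 0.707 in mutant log, DS and Q cells and 1.17, 0.877 and 0.152 in log, DS and Q cells of the wild type, so these 2 were close except in wild-type Q cells. SER3 and SER33, the 3-phosphoglycerate dehydrogenase genes, were at 126, 57.3 and 24.3 FPKM in the mutant and 109, 35.6 and 1.96 FPKM in wild type for SER3 and 164, 39.2 and 17.2 FPKM in the mutant and 142, 25.0 and 1.04 FPKM in wild type for SER33 (log, DS and Q in each). SER3 over SER33 stayed between 0.766 and 1.88 over the 6 conditions, the narrowest range of the 6 ratios on a log scale.

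LYS20 and LYS21 both encode homocitrate synthase. LYS20 was at 389, 344 and 93.8 FPKM in mutant log, DS and Q cells, and 209, 144 and 18.4 FPKM in wild-type log, DS and Q cells. LYS21 was at 283, 237 and 46.7 FPKM in mutant log, DS and Q cells, and 215, 113 and 6.0 FPKM in wild-type log, DS and Q cells, and the ratio LYS20 over LYS21 was 1.37, 1.46 and 2.01 in mutant log, DS and Q cells and 0.969, 1.28 and 3.06 in log, DS and Q cells of the wild type. Their coding sequences are 91.9% identical in the reference with a longest identical stretch of 278 bases, so how reads were divided between them is uncertain. Coding identity was 83.1% for SER3 and SER33, 81.2% for LEU4 and LEU9 as for ASN1 and ASN2, 72.5% for BAT2 and BAT1 and 69.8% for ARO3 and ARO4, with identical stretches of at most 83 bases.

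**Figure D5:**
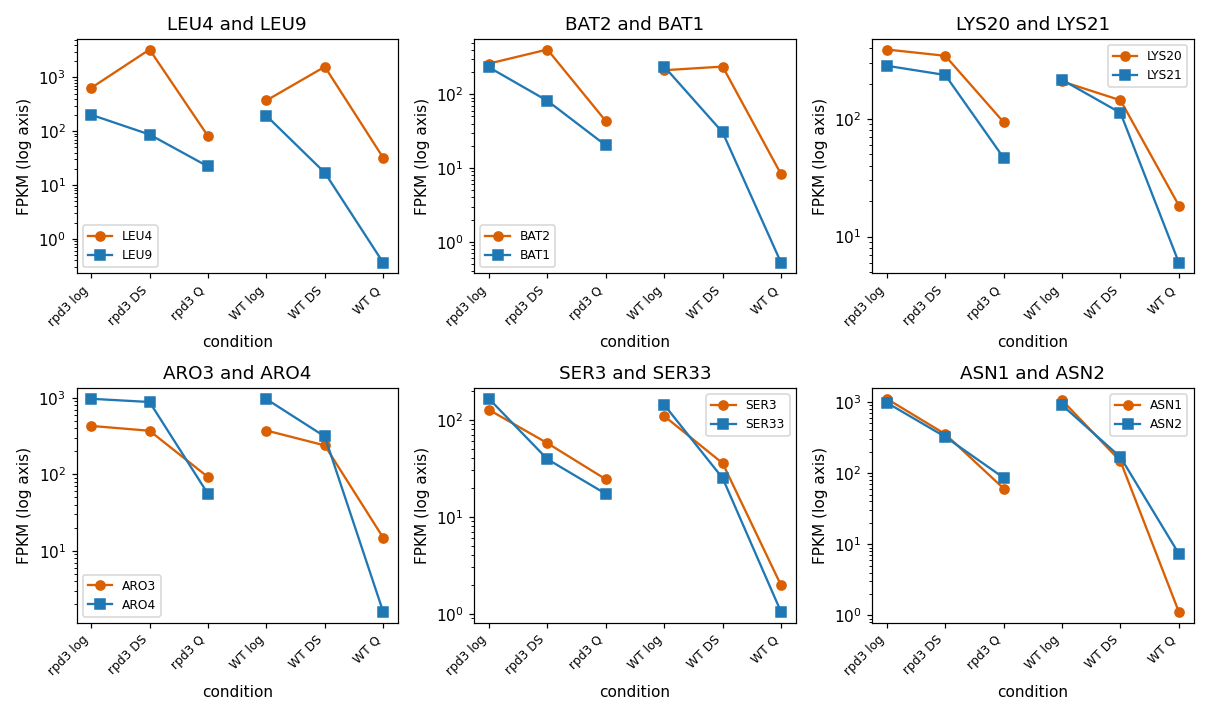
Levels in FPKM on a log axis of the 6 isozyme pairs in the mutant (left part of each panel) and wild type (right part), 1 deposited value per point. LEU4 and LEU9 part in DS cells, ARO3 and ARO4 cross between DS and Q cells in both genotypes, and ASN1 and ASN2 part in wild-type Q cells.

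Genes around these pathways are given next. A list of 8 other regulators with a role in amino acid pathways holds LEU3 of leucine and LYS14 of lysine synthesis and also regulators of breakdown. Of these 8, 0 were at least 2-fold higher and 1 lower in mutant DS against log cells (7.55% and 28.6% of all genes). In wild-type DS against log cells 0 were higher and 4 lower (9.91% and 44.2% of all genes). The medians were -0.25 (0.29 centred) in the mutant and -1.03 in wild type. LEU3, the activator that works with the isopropylmalate made by the LEU4 product, was at 37.6, 31.5 and 14.4 FPKM in mutant log, DS and Q cells, and 32.4, 12.4 and 1.81 FPKM in wild-type log, DS and Q cells. Its change was -0.25 (0.29 centred) in mutant and -1.32 in wild-type DS against log cells. ARO80, the activator of aromatic amino acid breakdown, was at 27.6, 53.7 and 13.2 FPKM in mutant log, DS and Q cells, and 14.0, 27.9 and 1.28 FPKM in wild-type log, DS and Q cells.

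A further list of 8 genes holds HIS3, LEU2, TRP1 and LYS5 of the pathways above, and genes of glycine, serine and alanine metabolism. Of the 8, 1 was at least 2-fold lower in mutant DS against log cells (28.6% of all genes) and 3 in wild-type DS against log cells (44.2%). None was higher, and the medians were -0.09 (0.46 centred) and -0.64 (0.26 centred). HIS3, LEU2, TRP1 and LYS5 were not among the lowered genes. They lay between -0.13 (0.42 centred) and 0.14 in the mutant and between -0.51 (0.40 centred) and 0.16 in wild type. HIS3, imidazoleglycerol-phosphate dehydratase and a Gcn4 model target, was at 827, 913 and 158 FPKM in mutant log, DS and Q cells, and 543, 382 and 27.2 FPKM in wild-type log, DS and Q cells. GLY1, threonine aldolase, was at 711, 272 and 80.3 FPKM in mutant log, DS and Q cells, and 612, 160.1 and 1.42 FPKM in wild-type log, DS and Q cells. HIS3, LEU2 and TRP1 are common marker genes of laboratory strains, and the sources used here do not say which alleles these strains carry.

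Amino acid breakdown genes had higher median changes in DS cells than the enzymes of synthesis. Of 10 breakdown genes 5 were at least 2-fold higher and 0 lower in mutant DS against log cells (7.55% and 28.6% of all genes), and 3 higher and 1 lower in wild-type DS against log cells (9.91% and 44.2% of all genes), with medians of 0.79 and 0.17. ARO10, a decarboxylase of aromatic amino acid breakdown, was at 113, 259 and 58.4 FPKM in mutant log, DS and Q cells, and 64.2, 309.5 and 12.9 FPKM in wild-type log, DS and Q cells. PUT1, proline oxidase, was at 43.7, 147 and 43.0 FPKM in mutant log, DS and Q cells, and 30.8, 96.3 and 11.7 FPKM in wild-type log, DS and Q cells, while the proline synthesis genes were lower in DS cells. ARO10 and PUT1 had the highest changes of the 10 genes in wild-type DS against log cells. PUT2, also of proline breakdown, changed little, by -0.01 (0.55 centred) in mutant and 0.28 in wild-type DS against log cells.

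Of 12 amino acid permease genes 4 were at least 2-fold higher and 0 lower in mutant DS against log cells (7.55% and 28.6% of all genes), and 1 higher and 4 lower in wild-type DS against log cells (9.91% and 44.2% of all genes), with medians of -0.06 (0.50 centred) and -0.09 (0.82 centred). In wild type these counts lay near the shares of all genes. PUT4, the proline permease, was at 6.60, 367 and 7.81 FPKM in mutant log, DS and Q cells, and 30.4, 459.8 and 10.9 FPKM in wild-type log, DS and Q cells. DIP5, the permease of aspartate and glutamate, was at 120.3, 763 and 242 FPKM in mutant log, DS and Q cells, and 175, 311 and 11.9 FPKM in wild-type log, DS and Q cells. In Q cells AGP1, a broad permease, was at 357 FPKM in the mutant and 4.38 FPKM in wild type, a change of 6.06, and PUT4 was at -0.43.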

How the data were processed

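The deposited table holds log2 values, 1 per condition, of FPKM that the authors normalized to RNA content per cell with the spike-ins, per the series text. The tools named are Cufflinks 2.2.1 with Cuffdiff, TopHat2, SAMtools and CASAVA, per the submitters' processing notes. The sources used here do not state their settings, the build or how isolates were combined. Base 2 was inferred, since gene length in kb times FPKM summed to 1288200 in wild-type log cells, against 31055485 with base e.

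Of 6602 rows, 4 with repeated names were left out, and 113 mutant DS values that repeat the mutant Q column were taken as missing (0 of the 50 genes among them). Values were turned back to FPKM, and 6524 genes with at least 1 FPKM in a condition were kept. Changes are differences of log2(FPKM + 1) in 9 comparisons and 3 genotype differences, with no test. Centred values were scaled to equal medians over genes with all 6 values before the pseudocount was added. Of the names, 5924 matched the RefSeq R64 annotation, used for promoters, gene lengths and coding identity (planned as protein identity). Alternatives were pseudocounts of 0.1 and 10, no filter, centring, leaving out isozyme pairs or LEU4, keeping the repeated values, and other motifs and windows. Scripts were tested on simulated data.

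The members and the lists were chosen with earlier results of these data known. By rule, all 6 values are given for GCN4, both genes of each isozyme pair, and the highest and lowest gene of each pathway in wild-type DS against log cells and in mutant against wild-type Q cells. The other genes, and some of each further list, are named for their roles or their changes. Python 3.11.15 with pandas 2.3.3, numpy 2.4.6, Biopython 1.88 and matplotlib 3.10.9 was used.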

Additional observations from a re-analysis of the deposited data

Results flagged for a closer look

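For 2 of the 50 genes the change between DS and log cells had opposite signs in the genotypes. HIS5, the histidinol-phosphate aminotransferase gene, changed by 0.22 in mutant and by -0.46 in wild-type DS against log cells. ILV3, the dihydroxyacid dehydratase gene, changed by 0.02 in the mutant and by -0.91 in wild type. The difference was not tested, since there is 1 value per condition, and none of these 4 changes reached 2-fold. The opposite signs depended on the scale: with conditions centred on the median gene HIS5 changed by 0.78 in mutant and 0.45 in wild-type DS against log cells, the same direction, and ILV3 by 0.58 and -0.00, the wild-type value being near 0.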

How the results depend on the processing

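Results were called unchanged within a fixed limit, which is not a measured spread. Keeping low genes changed no result beyond that limit. Neither did keeping the repeated mutant DS values or the other motifs and windows (33 of 50 genes with TGACTC in 500 bases, against 12.7% of promoters). Leaving out LEU4 turned the order of the wild-type shares, with 1.24% in DS and 1.31% in log cells. Centring each condition on its median gene had the widest effect, as its construction removes the common shift. The median over the 50 genes became -0.45 (4 higher, 17 lower) in wild-type DS against log, -2.54 (2 higher) in wild-type Q against log and -1.76 (33 lower) in wild-type Q against DS cells. In the mutant it became -1.79 in Q against log and -1.25 in Q against DS cells, with 3 higher and 7 lower in DS against log cells. In mutant against wild type it turned to -0.18 in log cells (0 higher), and became 0.19 (4 higher) in DS and 0.93 (24 higher, 6 lower) in Q cells. For the genotype differences it left 7 higher from log to DS, 0.93 (24 higher, 5 lower) from log to Q and 0.56 (12 higher, 6 lower) from DS to Q. Medians of all genes turned in sign but lay near 0: 0.0071 in wild-type Q against DS and 0.0108 in mutant DS against log cells, and -0.1154, -0.0426 and -0.0778 in mutant against wild-type log, DS and Q cells, and -0.11 for the genotype difference from DS to Q. 

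With pseudocounts of 0.1 and 10 the median was -7.25 and -4.03 in wild-type Q against log, -5.59 and -3.01 in wild-type Q against DS and 4.55 and 1.86 in mutant against wild-type Q cells. For the genotype differences it was 4.19 and 1.57 from log to Q and 3.51 and 1.04 from DS to Q. From DS to Q 26 genes were higher at 10, a count with no share of all genes beside it. Medians of all genes moved in the same direction. They were -4.70 and -1.98 in wild-type Q against log and -3.72 and -1.31 in wild-type Q against DS cells. In mutant against wild-type Q cells they were 3.57 and 1.25, and for the genotype difference from log to Q 3.33 and 0.99. LYS1 was no longer past 2-fold in log cells at 10 (0 higher). Without the isozyme pairs 0 of 38 genes were at least 2-fold higher in DS against log cells of either genotype, since LEU4 was left out, and the share was 1.25% in mutant DS, 0.980% in wild-type DS and 0.260% in wild-type Q cells. No paired analysis was possible because the table has 1 value per condition and no replicate columns; for the same reason leaving out a replicate was not run. Read depth is unknown, so changes that rest on wild-type Q values below 1 FPKM cannot be given a precision.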
